A study of Danio rerio with 20 samples.

Results

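The 43 genes described here encode nuclear-encoded parts of mitochondria, measured in zebrafish (Danio rerio) liver tumors and normal zebrafish livers. They are the genes on the array whose single platform symbol begins with nduf, sdha to sdhd, uqc, cyc1, cycs, cox4 to cox8, atp5, timm, tomm, mrpl or mrps, out of 5356 named genes and 15780 features in all. Each is measured by 1 probe. They comprise 9 genes named for complex I of the respiratory chain, 5 of complex III, 1 of complex IV, 2 of complex V, 10 of protein import, 10 of the large and 6 of the small subunit of the mitochondrial ribosome. No gene of complex II and no cytochrome c gene met the rule.

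The respiratory chain passes electrons from nutrients to oxygen and builds the proton gradient that ATP synthase, or complex V, uses to make ATP. Most of its subunits are encoded in the nucleus, made in the cytosol and brought in by the translocases of the outer membrane (the tomm genes) and inner membrane (the timm genes). A small set of subunits is encoded in mitochondrial DNA and made on the mitochondrial ribosome, whose proteins (the mrpl and mrps genes) are themselves imported. Hepatocytes hold many mitochondria, which also serve fatty acid oxidation, the urea cycle and amino acid breakdown.

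RNA of 10 carcinogen-induced liver tumors and 10 normal livers was labelled with Cy5, and each was hybridised with Cy3-labelled normal liver RNA on a 2-colour array. The title letters T and C with a number were taken as tumor and normal liver. The sources used here do not give the carcinogen or the strain, sex and age of the fish. They also do not say that arrays of a group hold different fish, and the p-values then reflect only variation among these arrays, some of it perhaps technical. Values are log2 ratios to the reference, likely liver over reference, and every sign would turn if the ratio ran the other way. A difference is tumor minus normal on this log2 scale with its SE (n = 10 per group), and a gene passed when limma's adjusted p over all 15780 features was under 0.05.

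The groups differed in more than these genes. Of 8 measured hepatocyte markers 6 fell and 0 rose in tumors, and the mean of the 8 ran from -0.20 to 0.48 on normal arrays and from -2.98 to -0.71 on tumor arrays. Their tumor means ran from -4.89 for rbp4, the retinol carrier of plasma, to -0.20 for hp, the haemoglobin-binding haptoglobin, with fabp10a, a liver fatty acid binding protein, at -2.20. Of 11 muscle markers, a tissue rich in mitochondria, 1 rose and 2 fell, and their mean ran from -0.54 to 0.40 on normal and from -0.48 to -0.06 on tumor arrays. Of 4 exocrine pancreas markers 0 rose and 0 fell by the threshold, though their median difference was -2.18. Their mean ran from -3.28 over a median of 1.14 to 2.71 on normal arrays and from -4.91 over -1.13 to 0.90 on tumor arrays. Of 8 ovary markers 2 rose and 1 fell, with a median difference of 1.31. Their mean had a median of -1.92 on normal and -0.44 on tumor arrays and was highest on normal replicate 8 (1.53) and tumor replicate 10 (1.13). Of 4 erythrocyte markers 1 fell and 0 rose (median difference -0.80), and the mean of 9 leukocyte markers was highest on normal replicate 7 (1.49) and tumor replicate 10 (2.30). The share of dim spots, read from values that equal ratios of small whole numbers, averaged 5.86% on normal and 1.97% on tumor arrays. The part of these cell types in the results below was not tested, and in bulk tissue fewer cells of a type and less RNA per cell cannot be told apart. A fit with the dim share as a covariate is given below, and it separates the share poorly from the group.

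Of the 43 genes 4 passed the threshold, a share close to that over all features. The small-subunit gene mrps18b rose, while the complex I genes ndufaf8 and ndufb8 and the outer-membrane import receptor gene tomm20b fell. These 4 make 9.30% of the 43, against 10.8% of all features that passed. The single increase compares with 5.91% of all features that rose, and the 3 decreases with 4.94% that fell. At an unadjusted p under 0.05 there were 7 of the 43 (16.3%), against 26.1% of all features. Among the 5356 named genes 12.7% passed, 7.56% rose, 5.13% fell and 28.7% had an unadjusted p under 0.05. The median difference of the 43 was 0.01, beside -0.01 over all features. For 37 of the 43 the 95% interval of the difference lay within 2-fold either way, as it did for 78.2% of all features. The 6 wider ones were ndufaf8, cox5ba, atp5mc3b, tomm34, mrps18b and mrps33. A difference of 2-fold or more was seen for 2 of the 43, mrps18b and tomm34 (4.65%, against 5.16% of all features). Without normal replicate 4 tomm34 was under 2-fold (0.96). In none of the 43 were the groups fully apart, a pattern found in 0.526% of all features.

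**Figure D1:**
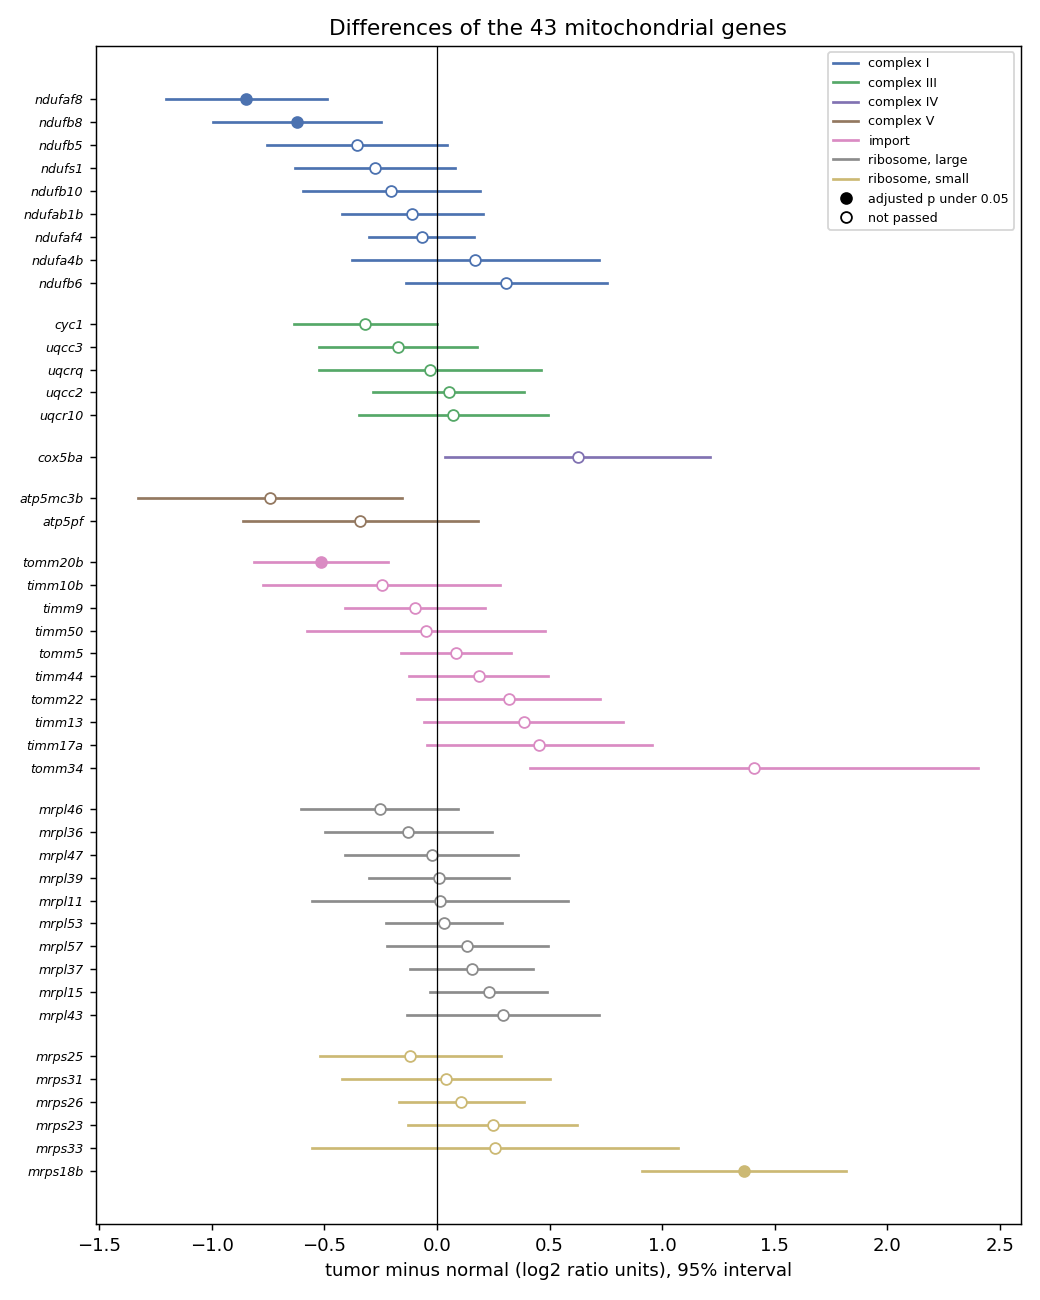
Tumor minus normal difference of each of the 43 genes in log2 units with its 95% interval, grouped by class; filled points passed the adjusted threshold of 0.05 and open points did not. The 4 filled points are mrps18b on the right and ndufaf8, ndufb8 and tomm20b on the left, and most open points lie within 0.5 of 0.

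Complex I, the NADH dehydrogenase, takes electrons from NADH into the chain. Ndufaf8 encodes one of its assembly factors, known from human cells to act with NDUFAF5. Its log2 ratio to the reference had a lowest, median and highest value of -0.14, 0.39 and 0.63 on the normal arrays and of -1.35, -0.51 and 0.16 on the tumor arrays. All 10 tumors lay below the normal median, and 8 lay below every normal array. Ndufaf8 fell by 0.85 (SE 0.17, adjusted p = 0.00308 with limma), which puts normal liver 1.80-fold above tumor. It stayed past the threshold without any 1 array.

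Ndufb8 encodes a subunit of the membrane arm of complex I. Its log2 ratio ran from -0.13 over a median of 0.54 to 1.61 on the normal arrays and from -0.47 over -0.05 to 0.29 on the tumor arrays. The highest normal values belonged to replicates 3 and 7, and 2 tumors lay below all normal arrays. The difference was -0.62 ± 0.18 (adjusted p = 0.0285), or 1.54-fold. The adjusted p was 0.0519 when normal replicate 7 was left out and 0.0745 when tumor replicates 1 and 10 both were.

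The other 7 genes with an nduf name did not pass. Ndufb5 and ndufb10, both subunits of the membrane arm, stood at -0.36 ± 0.19 and -0.20 ± 0.19, and ndufs1, the large iron-sulfur subunit that carries electrons from NADH, at -0.27 ± 0.17. Ndufab1b encodes an acyl carrier protein that is part of complex I and also serves mitochondrial fatty acid synthesis (-0.11 ± 0.15), and ndufaf4 an assembly factor (-0.07 ± 0.11). Ndufb6 (0.31 ± 0.21) and ndufa4b (0.17 ± 0.26) had differences above 0. The mammalian protein NDUFA4, despite its name, was later placed in complex IV. Over the 9 genes the median was -0.20, with 7 differences below 0. Ndufa4b was high on a few arrays of each group, reaching 1.54 in normal replicate 3 and 2.03 in tumor replicate 10.

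No gene of complex III, the cytochrome bc1 complex, passed. Cyc1, the cytochrome c1 subunit that hands electrons to cytochrome c, ran from -0.69 to 0.52 on normal arrays (median 0.12) and from -0.77 to 0.02 on tumor arrays (median -0.22). All 10 tumors lay below the normal median, but the groups overlapped and the difference, -0.32 ± 0.15, had an adjusted p of 0.193 with limma. The subunit genes uqcr10 and uqcrq stood at 0.07 ± 0.20 and -0.03 ± 0.24. The assembly factor genes uqcc2 and uqcc3 stood at 0.05 ± 0.16 and -0.17 ± 0.17. All 5 intervals lay within 2-fold.

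Cox5ba, the one gene of complex IV (cytochrome c oxidase, which reduces oxygen), was above the reference in most livers of both groups. Its log2 ratio ran from -0.18 over 0.70 to 2.22 on normal and from 0.52 over 1.5 to 2.77 on tumor arrays, with 9 of 10 tumors above the normal median. The difference of 0.62 ± 0.28 did not pass (adjusted p = 0.165, 95% interval 0.04 to 1.21). It passed when arrays were centred and scaled to the same spread (0.91, adjusted p = 0.0322), a setting in which 2736 of all features passed, against 1712 as reported.

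In complex V, atp5mc3b encodes a c subunit of the ring that turns in the membrane. It ran from -1.07 over -0.20 to 1.55 on normal arrays and from -1.22 over -0.78 to -0.03 on tumor arrays. Normal values were widely spread, with replicates 1, 2, 3 and 7 above 0.4 and replicates 8 and 9 below -1. The difference of -0.74 ± 0.28 did not pass (adjusted p = 0.0948), and without normal replicate 8 it did (-0.85, adjusted p = 0.0474). Atp5pf, a subunit of the peripheral stalk also called coupling factor 6, stood at -0.34 ± 0.25. It was -0.17 without normal replicate 3 and -0.01 with array quality weights.

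**Figure D2:**
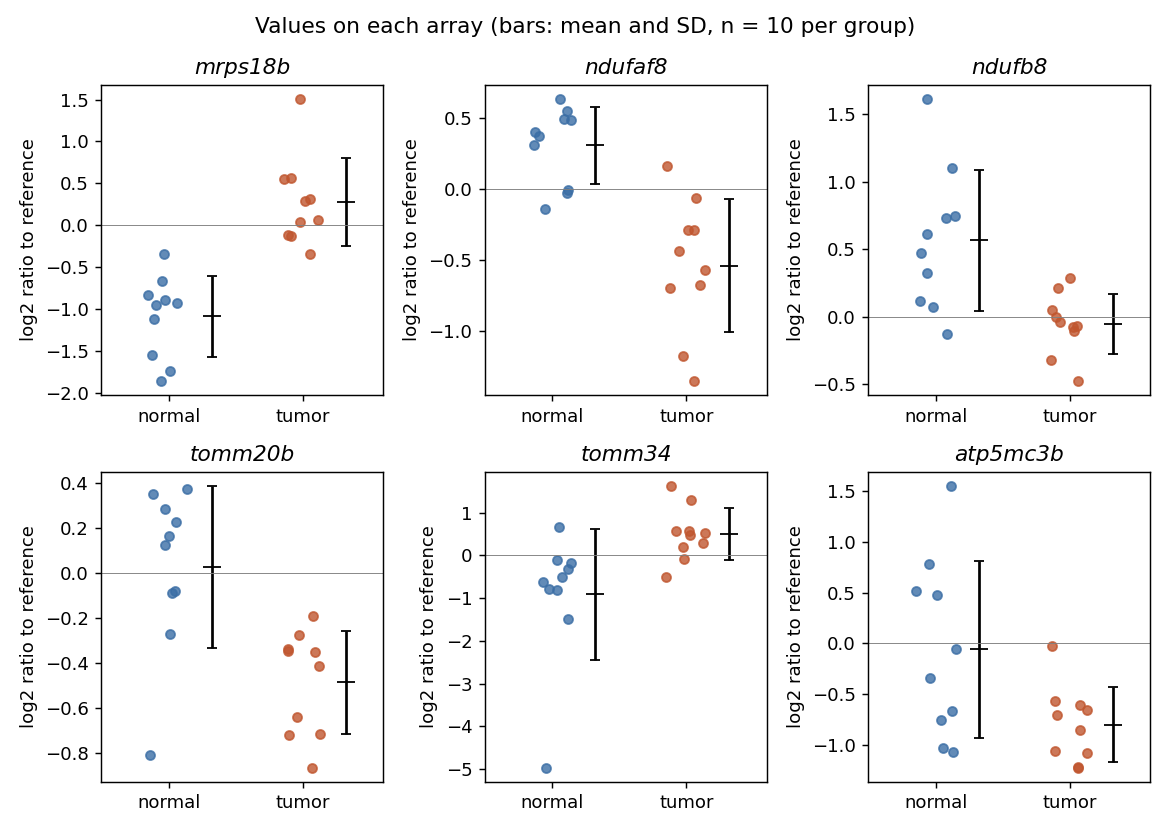
Log2 ratio to the reference on each array for the 4 genes that passed (mrps18b, ndufaf8, ndufb8, tomm20b) and for tomm34 and atp5mc3b, which did not; blue points are the 10 normal arrays, orange points the 10 tumor arrays, and bars show the mean and SD. The groups of mrps18b meet only at -0.35, while one normal array of tomm34 stands at -4.96, far from the others.

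Tomm20b encodes a zebrafish form of Tom20, the outer-membrane receptor for proteins with a cleavable presequence. Its log2 ratio ran from -0.81 over 0.14 to 0.37 on normal arrays and from -0.87 over -0.38 to -0.19 on tumor arrays. Every tumor lay below the normal median, and the lowest normal array was replicate 5. Tomm20b fell by 0.51 (SE 0.14, adjusted p = 0.0238, 1.43-fold). It missed the threshold with array quality weights (-0.34, adjusted p = 0.0877). Leaving out normal replicate 8 together with tumor replicate 10 gave -0.46 (adjusted p = 0.0527).

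Tomm22, whose product is the central receptor next to Tom20, had the other sign but did not pass (0.32 ± 0.20). With array quality weights tomm22 passed (0.49, adjusted p = 0.0423). In that setting 3391 of the 15780 features passed, against 1712 without weights. Tomm5, a small subunit of the pore complex, stood at 0.09 ± 0.12. Tomm34 differs from tomm22 and tomm5 in that its human protein is a cytosolic cochaperone of precursor proteins. It had the largest difference of the 43, 1.41 ± 0.48, or 2.65-fold, without passing (adjusted p = 0.0622). Its log2 ratio ran from -4.96 over -0.57 to 0.65 on normal arrays and from -0.50 over 0.50 to 1.63 on tumor arrays. All 10 tumors lay above the normal median, and normal replicate 4 stood far below the other arrays. Without normal replicate 4 the difference was 0.96 and passed (adjusted p = 0.0266), as it did without normal replicate 9 (1.58, adjusted p = 0.0394), without tumor replicate 9 (1.52, adjusted p = 0.0446) and by the rank-sum test (adjusted p = 0.0250), where 11.8% of all features passed. Tomm34 also passed with array quality weights (1.11, adjusted p = 0.0186), with arrays centred and scaled (1.35, adjusted p = 0.0286) and after quantile normalization (1.28, adjusted p = 0.0357). Without normal replicate 4 the difference of mrps18b, 1.28, was larger than that of tomm34.

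No gene of the inner-membrane translocases passed. Timm17a, a channel subunit for presequence proteins, was below the reference on all 20 arrays, from -2.03 to -0.68 on normal and from -1.77 to -0.08 on tumor arrays, with a difference of 0.45 ± 0.24. With array quality weights timm17a (0.79, adjusted p = 0.0256) and timm13 (0.59, adjusted p = 0.0124) passed. Timm50, the receptor of that channel, stood at -0.05 ± 0.26 and timm44, which ties the channel to the import motor, at 0.19 ± 0.15. The small chaperones of the space between the membranes lay on both sides of 0, with timm13 at 0.38 ± 0.21, timm9 at -0.10 ± 0.15 and timm10b at -0.25 ± 0.25. Over the 10 import genes the median difference was 0.14, with 6 above 0 and 4 below. When the fit held the dim share as a covariate this median was -0.04.

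In the mitochondrial ribosome, mrps18b had the smallest p of the 43 genes. Its product is one of the S18-type proteins of the ribosome. Its log2 ratio had a lowest, median and highest value of -1.86, -0.94 and -0.35 on normal arrays and of -0.35, 0.17 and 1.51 on tumor arrays. All normal livers were thus below the reference, 9 of 10 tumors lay above every normal array, and tumor replicate 1 was the highest. Mrps18b rose by 1.36 (SE 0.22, adjusted p = 0.000481 with limma), which is 2.57-fold. Its adjusted p stayed between 0.000343 and 0.00123 when each array was left out in turn.

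The other 5 small-subunit genes did not pass, at 0.26 ± 0.39 for mrps33, 0.25 ± 0.18 for mrps23, 0.11 ± 0.13 for mrps26, 0.04 ± 0.22 for mrps31 and -0.12 ± 0.19 for mrps25. Mrps31 was above the reference on all arrays, from 0.02 to 1.77 on normal and from 0.06 to 1.80 on tumor arrays. Of the small-subunit genes, mrps33 was spread most among the normal livers, from -3.26 to 1.02, against -0.04 to 0.64 in tumors. The lowest of these values counts as dim by the rule for the dim share.

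None of the 10 large-subunit genes passed, and all 10 intervals lay within 2-fold. Mrpl43 (0.29 ± 0.21) and mrpl15 (0.23 ± 0.12) were highest and mrpl46 (-0.25 ± 0.17) lowest. With array quality weights mrpl15 passed (0.32, adjusted p = 0.0194). Mrpl37 (0.15 ± 0.13), mrpl57 (0.13 ± 0.17), mrpl53 (0.03 ± 0.12), mrpl11 (0.01 ± 0.27), mrpl39 (0.01 ± 0.15), mrpl47 (-0.02 ± 0.18) and mrpl36 (-0.13 ± 0.18) lay between. Cytosolic ribosomal proteins served as a comparison, and of 15 measured genes 0 passed (0 at an unadjusted p under 0.05). Their differences ran from -0.41 ± 0.28 for rplp0 to 0.20 ± 0.23 for rpl13, with rpl6 at -0.12 ± 0.21.

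By class, the 17 respiratory chain and ATP synthase genes had a median difference of -0.17, with 12 below 0, 2 that fell and 0 that rose. The 16 genes of the mitochondrial ribosome had a median of 0.07, with 12 above 0 and 1 that rose. Without tumor replicate 1 that median was 0.01, with 8 above and 8 below 0. Of all features 50.9% had a difference below 0. These counts and medians describe the lists and were not tested against each other. With arrays weighted by their quality the respiratory median was -0.01, with 9 of 17 below 0.

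With the dim share as a covariate, 0 of the 43 genes passed, beside 0.342% of all features. Most tumor arrays had a dim share below that of every normal array. This fit therefore separates the share poorly from the group, and its SEs were larger for the 4 genes. The differences were then 1.21 ± 0.32 for mrps18b, -0.61 ± 0.24 for ndufaf8, -0.55 ± 0.26 for ndufb8 and -0.37 ± 0.21 for tomm20b. In that order limma's adjusted p was 0.117, 0.357, 0.455 and 0.536. Tumor replicate 9 had the highest dim share of the tumors, 7.17%, where normal arrays spanned 2.56% to 7.87%. It also had the highest mean of the hepatocyte markers among tumors (-0.71). Dim share and hepatocyte content therefore cannot be told apart on this array. On that array mrps18b stood at -0.11, above all normal arrays but among the lowest tumors. Ndufb8 stood at -0.11, below the normal median. Ndufaf8 (0.16) and tomm20b (-0.19) were each at their highest tumor value there, below their normal medians.

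Among arrays of the same group, the 43 genes moved together. After removal of the group means, the mean correlation between 2 of them over the 20 arrays was 0.30, beside 0.02 over all pairs of features. Their mean correlation with 15 cytosolic ribosomal protein genes was close to this, at 0.28, so the shared movement was not particular to the 43. Of the 903 pairs 740 (81.9%) had a correlation above 0. All pairs share the same arrays, so these values are a description. The mean was similar between classes, at 0.29 for respiratory against import genes, 0.31 for respiratory against ribosome genes and 0.31 for import against ribosome genes. It was 0.31 with arrays centred on their median, 0.31 with the dim share as a covariate, and 0.27 without normal replicates 3 and 7, settings chosen after the values were seen. It was 0.38 over the 10 normal arrays and 0.17 over the 10 tumor arrays, a gap that was not tested. Of the pairs 82.4% were above 0 over normal and 68.4% over tumor arrays.

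**Figure D3:**
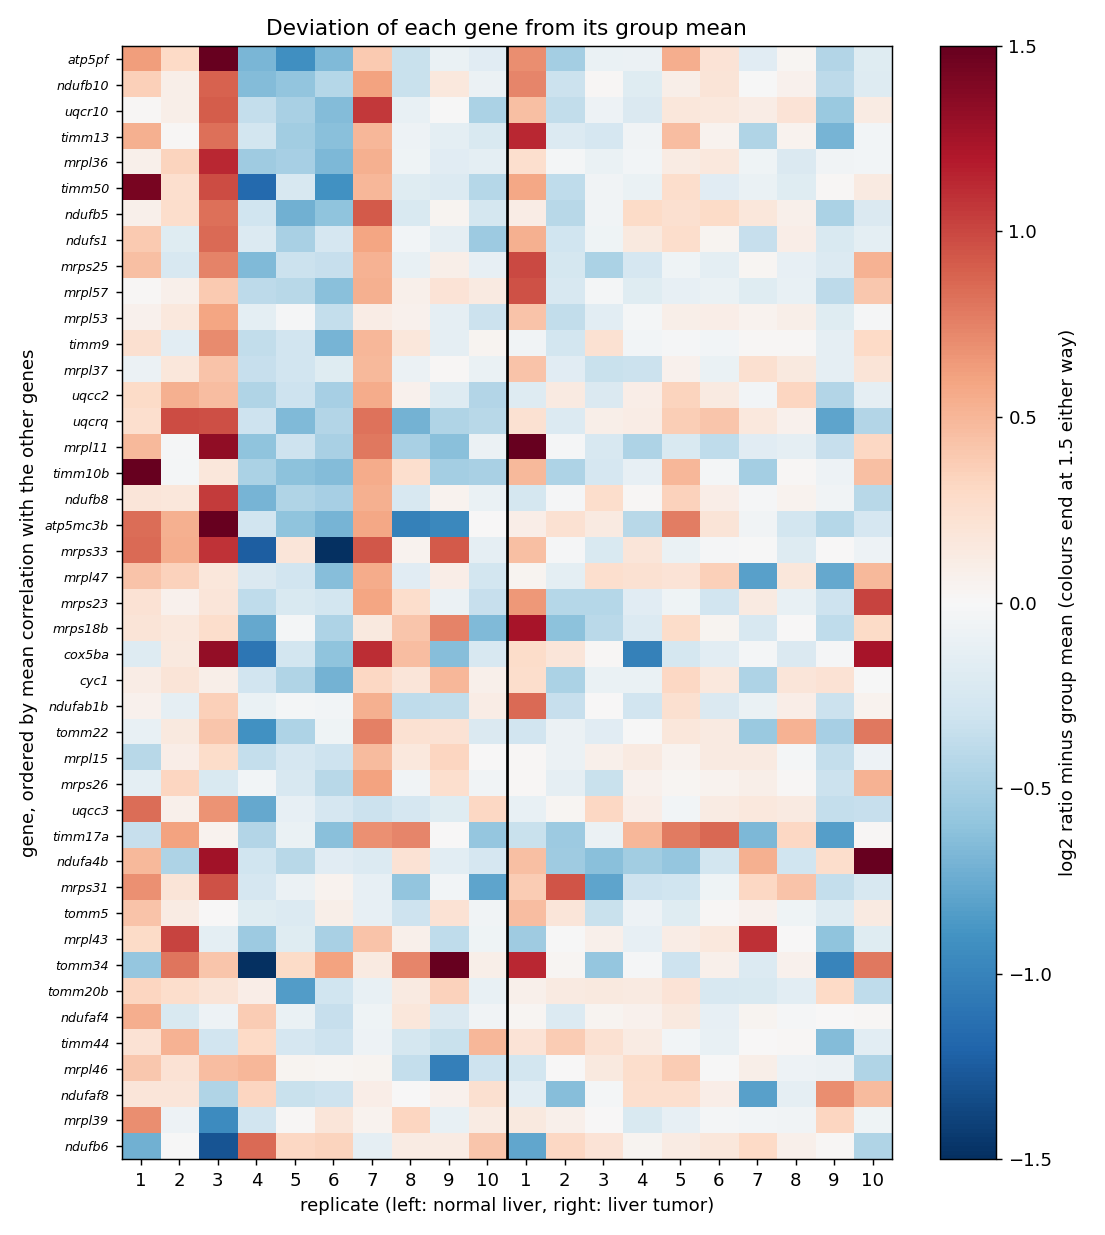
Each row is 1 of the 43 genes and each column 1 array; colour gives how far the value (log2) lies from the mean of that gene in its group, with genes ordered by their mean correlation with the other 42. Normal replicates 3 and 7 are mostly red and normal replicates 4 and 6 mostly blue, and ndufb6 in the bottom row runs the other way.

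Normal replicate 3 held the highest normal value of 15 genes and normal replicate 7 of 11, whereas normal replicate 6 held the lowest of 14 and normal replicate 4 of 12. Among tumors, replicate 1 was highest for 17 genes and replicate 9 lowest for 14. Such counts are not given over all features, and arrays differed in spread over all probes. The median distance of a probe from the array median averaged 0.34 on normal and 0.30 on tumor arrays. It was 0.50, 0.31, 0.30 and 0.38 on normal replicates 3, 7, 6 and 4, and 0.54 and 0.36 on tumor replicates 1 and 9. Its part in these counts was not tested. The mean of the 17 respiratory genes reached 0.81 on normal replicate 3 and lay between -0.21 and 0.19 on all tumors. The import mean was lowest on normal replicate 4, at -1.0, and the ribosome mean on normal replicate 6, at -0.57. Each of these means held 1 very low value, tomm34 at -4.96 on normal replicate 4 and mrps33 at -3.26 on normal replicate 6. Which array was lowest rests in part on these values. The mrps33 value is among those counted as dim on its array. Whether the tomm34 value came from a dim spot was not tested. Among tumors, the import and ribosome means were both highest in replicate 1 (0.28 and 0.52).

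**Figure D4:**
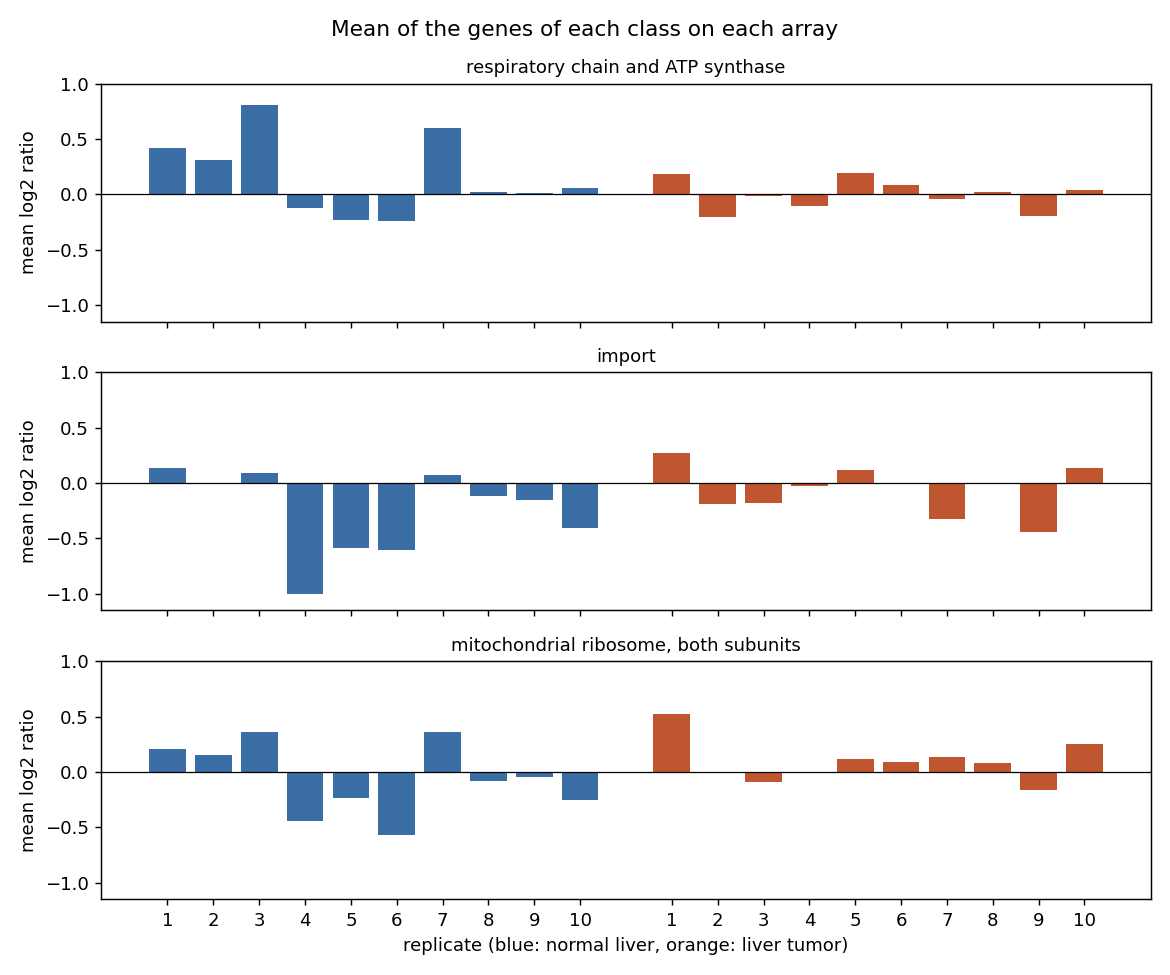
Mean log2 ratio of the respiratory chain and ATP synthase genes (17), the import genes (10) and the mitochondrial ribosome genes (16) on each array; blue bars are normal and orange bars tumor arrays, all starting at 0. Normal replicates 1, 3 and 7 are above 0 and normal replicates 4, 5 and 6 below 0 in all 3 panels, and tumor bars are shorter than the tallest normal bars in the respiratory panel.

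Atp5pf (0.50), ndufb10 (0.50) and uqcr10 (0.50) had the highest mean correlation with the other 42 genes. Ndufb6 ran against them (-0.49, with 4 of 42 correlations above 0) and was lowest on normal replicate 3 (-1.55), where most others were high. Mrpl39 (-0.13) and ndufaf8 (-0.02) did not follow the rest either. The 15 cytosolic ribosomal protein genes correlated among themselves at a mean of 0.86. Their mean correlation with the 43 genes was 0.28 over all arrays, 0.46 over normal and -0.01 over tumor arrays. The value over all arrays moved with a few arrays. It was 0.34 without tumor replicate 1, 0.38 without tumor replicates 1 and 10, and 0.14 without normal replicates 3 and 7. The gap between groups was not tested.

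The spread within groups was larger among normal livers for 33 of the 43 genes (76.7%), beside 60.4% of all features. The median SD of the 43 was 0.48 on normal and 0.32 on tumor arrays, against 0.44 and 0.38 over all features. Mrpl36 ran from -0.43 to 1.38 on normal but from -0.09 to 0.37 on tumor arrays, and timm50, with an SD of 0.80 on normal arrays, had 0.27 on tumor arrays.

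Other mitochondrial genes were listed by function, and their counts stand beside 5.91% of all features that rose and 4.94% that fell. In the tricarboxylic acid cycle and pyruvate dehydrogenase, which supply NADH, 1 of 6 measured genes rose and 1 fell. Suclg2, a subunit of the succinyl-CoA ligase that makes GTP, ran from -0.78 over -0.19 to 0.59 on normal and from -3.51 over -1.44 to -0.26 on tumor arrays. It fell by 1.42 (SE 0.33, adjusted p = 0.00764), and 7 tumors lay below all normal arrays. Sucla2, the subunit of the ligase that makes ATP, stood at 0.01 ± 0.15. Dlat, the acetyltransferase of pyruvate dehydrogenase, rose by 0.60 (SE 0.19, adjusted p = 0.0421). Leaving out 1 array ended this call for 11 of the 20 arrays, with adjusted p up to 0.0776. The rank-sum test gave dlat an adjusted p of 0.0523, and with the dim share it stood at 0.43 (adjusted p = 0.591). Citrate synthase, cs, at 0.60 ± 0.21, did not pass (adjusted p = 0.0695), but did without normal replicate 7 or tumor replicate 9 (adjusted p as low as 0.0381). Cs also passed with arrays centred and scaled (adjusted p = 0.0353), after quantile normalization (adjusted p = 0.0402) and with array quality weights (adjusted p = 0.0439).

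Among genes of import and folding outside the timm and tomm names, 1 of 5 rose and 1 fell. Hspd1, the chaperonin of the matrix, ran from -2.17 over -1.27 to -0.44 on normal and from -0.88 over -0.04 to 0.75 on tumor arrays, with 8 tumors above all normal arrays. It rose by 1.23 (SE 0.26, adjusted p = 0.00383, 2.34-fold), while its partner hspe1 stood at 0.18 ± 0.27. Hspa9, the Hsp70 of the import motor, stood at 0.40 ± 0.17 and did not pass (adjusted p = 0.141). Hspa9 passed without normal replicate 9 (adjusted p = 0.0492) and with array quality weights (0.47, adjusted p = 0.0253). Mtx3, a metaxin of the outer membrane, fell by 0.71 (SE 0.16, adjusted p = 0.00697), with 7 tumors below all normal arrays. When the fit held the dim share, the differences were 0.89 for hspd1, -0.55 for mtx3 and -1.5 for suclg2 (adjusted p = 0.368, 0.394 and 0.217).

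Of 3 carriers and pores, 1 rose and 1 fell. Ucp2, an inner-membrane carrier, rose by 1.42 (SE 0.39, adjusted p = 0.0219), from a normal median of -0.80 to a tumor median of 0.68. Leaving out tumor replicates 1 and 10 gave 1.31 (adjusted p = 0.0573). With the dim share as a covariate ucp2 stood at 0.36 (adjusted p = 0.818). It also missed the threshold by the rank-sum test (adjusted p = 0.0523). The outer-membrane channel vdac3 fell by 1.02 (SE 0.29, adjusted p = 0.0278). It missed the threshold without tumor replicate 1 or 7 (adjusted p up to 0.0539), without tumor replicates 1 and 10 (-0.75, adjusted p = 0.0820) and by the rank-sum test (adjusted p = 0.0523). With the dim share vdac3 stood at -0.57 (adjusted p = 0.650). Vdac2 stood at -0.75 ± 0.25 (adjusted p = 0.0535). Vdac2 passed on leaving out any of 4 normal arrays (adjusted p as low as 0.0312). It also passed after quantile normalization (-0.65, adjusted p = 0.0402) and with arrays centred and scaled (-0.62, adjusted p = 0.0467).

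Of 4 assembly and electron carrier genes 1 fell and 0 rose. Coq8aa, known in its mammalian form for coenzyme Q synthesis, stood at -0.65 ± 0.20 (adjusted p = 0.0390). Leaving out 1 array ended this call for 12 of the 20 arrays, with adjusted p up to 0.0678. It was -0.46 without tumor replicates 1 and 10 (adjusted p = 0.0961) and -0.33 with the dim share (adjusted p = 0.698). Cox10, needed for the haem of complex IV, stood at 0.70 ± 0.33 and passed without normal replicate 1 (adjusted p = 0.0357), with array quality weights (1.05, adjusted p = 0.00326) and with arrays centred and scaled (1.01, adjusted p = 0.0336). Tmem126a stood at -0.14 ± 0.16 and did not pass. Of 7 regulators limma called 0 (1 at an unadjusted p under 0.05), with pprc1, a coactivator related to PGC-1, at 0.59 ± 0.19 (adjusted p = 0.0511), phb at 0.33 ± 0.24 and ppargc1b at 0.15 ± 0.18. Pprc1 passed without any one of 5 arrays (adjusted p as low as 0.00848) and with arrays centred on the median (0.62, adjusted p = 0.0403). Of 3 mitochondrial translation genes limma also called 0 (1 at an unadjusted p under 0.05), with the elongation factor tufm at 0.31 ± 0.13 (adjusted p = 0.136), ptcd3 at -0.08 ± 0.12 and the synthetase yars2 at -0.10 ± 0.23. In these 6 lists together, no gene had groups that were fully apart, a pattern found in only 0.526% of all features.

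**Figure D5:**
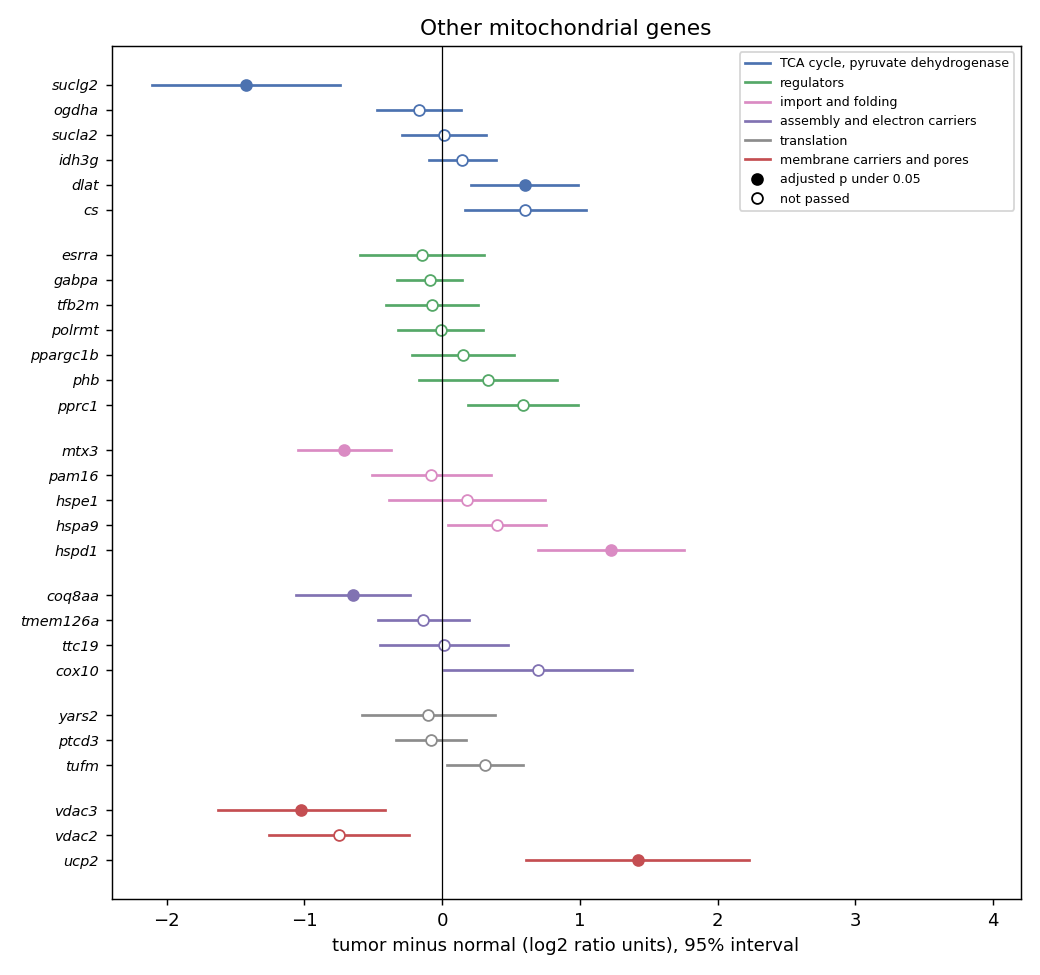
Tumor minus normal difference in log2 units with its 95% interval for the measured genes of 6 other mitochondrial lists; filled points passed the adjusted threshold of 0.05. Filled points lie on both sides of 0, with suclg2, vdac3, mtx3 and coq8aa on the left and dlat, hspd1 and ucp2 on the right.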

How the data were processed

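The authors deposited 1 table of log2 ratios, 16512 probes by 20 arrays, with the channels as the labels give them. The log base was read from the values, and the sources used here do not state how spots were filtered, corrected or normalized. Values were used as deposited, and there were 0 missing values. Of the probes 6088 (36.9%) had 1 gene symbol, 75 had several and 10349 had none. Probes sharing 1 symbol were averaged into 5356 named genes, and every other probe was kept as its own feature, giving 15780 features. Entrez numbers of 6019 probes, and all 43 of the genes described, were found in a RefSeq gene table (GRCz12tu, for names only). Signal brightness is not in the table, so the SEs take no account of it. They are limma's moderated SEs, which draw the variance of each feature toward a value common to all features.

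Tumor was compared with normal with limma 3.58.1 (lmFit, eBayes; R 4.3.3) over all features, two-sided, with Benjamini-Hochberg adjustment. The fit was tested on simulated data. The dim share of an array is the percent of values that, after removal of 1 constant, lie within 0.00011 of a log2 ratio between whole numbers no larger than 10. Alternatives were 3 scalings, this share as a covariate, the replicate number as a block, a rank-sum test, other treatment of probes, array weights and arrays left out. Deviations of same-numbered tumor and normal arrays from their group means correlated between -0.15 and 0.12, so the numbers were not taken as pairs. Genes were named by a rule: those that passed, the 3 smallest p and the extreme differences of each class, and the 3 smallest p of each other list. The remaining genes are given for completeness, and 4 kinase and binding protein genes with an rps name were kept out of the ribosomal proteins. No probe had the regulator ppargc1a, nrf1 or tfam as its only gene symbol, so these were not analysed. The genes and lists were chosen with earlier results of these data known. Other steps used Python 3.11.15.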

Additional observations from a re-analysis of the deposited data

Results flagged for a closer look

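A test for a single array apart from the other 9 of its group used the gap to the nearest array over the range of the group. It took 64 genes in each group, those of the respiratory, import and ribosome classes and named genes of the other lists. Its cutoff of 0.466 is set for about 1 in 20 independent tests. These tests share arrays and the genes moved together, so the counts are a description and no excess over chance is drawn from them. Arrays past the cutoff were found in 16 of 128 tests (12.5%). The share over all features is not given. Tumor replicates 1 and 10 and normal replicate 1 were also wide over all probes, with median distances from the array median of 0.54, 0.61 and 0.53. Tumor replicate 1 accounted for 5, at 1.14 for ndufab1b, 0.757 for ndufb10, 1.89 for mrpl11, 1.51 for mrps18b and -1.83 for yars2. Tumor replicate 10 accounted for 3, at 2.03 for ndufa4b, 0.681 for mrps26 and -0.926 for mtx3. Tumor replicate 9 was the lowest for timm44 (-0.564) and mrpl15 (-0.344), and tumor replicate 7 the highest for mrpl43 (1.18). Among normal livers, replicate 1 stood at 1.81 for timm10b, 1.94 for cox10 and -1.42 for yars2, replicate 5 at 0.434 for tufm, and replicate 4 at -4.96 for tomm34, whose other normal values ran from -1.49 to 0.65.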

How the results depend on the processing

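The number of features called, 1712, became 3391 with array weights, 2736 with arrays centred and scaled and 54 when the dim share was a covariate, and 1358 to 2148 with each array left out. The count of the 43 that rose, 1, became 6 with array weights, 3 after centring and scaling, 2 after quantile normalization, 2 by the rank-sum test, 0 with the dim share, and 1 to 2 with each array left out. Calls over all features also increased with array weights and after centring and scaling. The share of all features that rose is not given for each setting, so these counts show no gain particular to the 43. The count that fell, 3, became 0 with the dim share, 2 with array weights and 2 to 4 with each array left out. With array weights the median was -0.0534 for complex I, 0.242 for complex III and -0.00646 for the respiratory genes. Signs were compared gene by gene only for the genes named by the rule. With the dim share, mrpl43 (-0.0880), mrps25 (0.0529), ppargc1b (-0.10) and timm17a (-0.11) changed sign. So did uqcc3 with array weights (0.00453) and yars2 with array weights (0.0641) and without tumor replicates 1 and 10 (0.0572). Leaving out each array gave yars2 -0.237 to 0.0705, above 0 only without tumor replicate 1. Further genes of the 43 changed sign. With the dim share the import genes above 0 went from 6 to 4. With array weights the respiratory genes above 0 went from 5 to 8. None of the 6 genes named here for a changed sign passed in the comparison as reported, and the cause was not tested. With the replicate block, 1253 features passed, 1 of the 43 rose and 2 fell, since ndufb8 missed the threshold (adjusted p = 0.0509), as did dlat (adjusted p = 0.0654) and vdac3 (adjusted p = 0.0648), and the samples share only a number. Of 10 normal arrays 1 correlated best with the tumor array of its own number. Spot brightness is not known, and values counted as dim were not removed before the fits.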
